A study of Mus musculus with 12 samples.

Results

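The neuregulin and ErbB receptor family was followed through the 3 sorting gates of Schwann cells (SCs). It was taken as 10 genes of the deposited count matrix, selected by matching the Ensembl mouse identifiers to the symbols Erbb2, Erbb3, Erbb4, Egfr, Nrg1, Nrg2, Nrg3, Nrg4, Erbin and Errfi1. All 10 were found among the 25700 genes listed. A total of 9 of them were among the 18597 genes with enough counts to be tested, and Nrg2 was not.

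The libraries came from mouse sciatic nerve at P5 (postnatal day 5), an age at which some SCs have begun to myelinate while others still sort axons. All animals had the genotype P0Cre-/+: ReYFP Tg/+: βAct-DsRed Tg/+, so the groups differ by gate and not in these transgenes. The paper reports female and male mice in equal number for every gate. Within a gate, its plot of sample distances placed mice of like sex together. The part of sex in the spread between libraries was not tested. P0Cre is a Cre recombinase active in the SC lineage, and it switches on eYFP from the Rosa26 locus in these cells, whereas DsRed is made in all cells. The allSC gate took all eYFP-positive cells, the mSC gate the cloud of high side scatter, which is enriched in myelinating SCs, and the nmSC gate the cloud of low side scatter, which is enriched in not-myelinating SCs. Each gate had 4 Smart-Seq2 libraries, numbered 1 to 4 in the labels. Libraries with the same number were taken as from the same mouse, an inference from the labels, and the number is called the mouse number below. The gates are enrichments rather than pure populations.

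In nerve, neuregulin 1 on the axon surface binds Erbb3 on the SC. Erbb3 has little kinase activity of its own and signals by pairing with Erbb2, which has an active kinase but no known ligand. Signals from this pair run through the Ras and ERK, PI3K and Akt, and phospholipase C gamma routes, and they are needed for the survival, division and migration of SCs and for myelin formation. Errfi1 (also called Mig6) is an inhibitor that binds the kinase domains of receptors of the EGF family, and Erbin is a scaffold protein that binds Erbb2.

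Depth was between 8180927 and 16918122 counted reads per library, and 3 counts, the limit set for detection, equalled 0.177 to 0.367 CPM (counts scaled to the library total) before normalization. The gates matched their names on the myelin and immature SC markers apart from Gfap. Ncmap, a myelin gene, was at 1591 to 3017 CPM in mSC and 159 to 223 CPM in nmSC, and Prx, the gene of another myelin protein, at 3618 to 6409 CPM and 1535 to 2052 CPM. The immature SC markers Ngfr, Ncam1, L1cam, Cdh2 and Gfap together had 77.4 to 138 CPM in mSC and 863 to 1199 CPM in nmSC. Gfap was very low, with means of 0.57 CPM in mSC and 1.01 CPM in nmSC, and did not differ (edgeR adjusted p = 0.449). Among the 4 mSC libraries, replicate 4 stood apart. The chi-square of its counts against the other 3 mSC libraries was 61.2 to 125 per degree of freedom, and that among those 3 was 6.35 to 26.7, so results that it carries are given with and without it.

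Between mSC and nmSC, 4 of the 9 tested members differed, at an adjusted p under 0.05 in the edgeR quasi-likelihood test with Benjamini-Hochberg adjustment over all tested genes. Errfi1 and Erbin were higher in mSC, and Erbb3 and Nrg1 were higher in nmSC. By the same rule 40.5% of all tested genes differed between these gates, 20.4% with the higher level in mSC and 20.2% in nmSC, so the share of members was close to that of the transcriptome at large. The median log2 fold change of mSC against nmSC was -0.34 over the 9 members and -0.16 over all tested genes. The 4 libraries of mSC and the 4 of nmSC did not overlap for 5 members, the 4 above and Nrg4, against 34.2% of all tested genes. With library size in place of TMM factors, the median of all tested genes moved to -0.73 and the split of all called genes from 3792 higher and 3748 lower in mSC to 1448 and 10392. The members then split into 2 higher and 5 lower. Measured from the median of all genes, Errfi1 and Erbin lay above and Erbb3 and Nrg1 below under each scaling tried. A change of scaling shifts all genes by nearly the same amount, so this distance hardly moves. For Errfi1 it was 2.03 with TMM factors and 2.04 with library size alone. It is therefore no check on the scaling. In sorted bulk samples, fewer cells that express a gene cannot be told apart from less of its RNA per cell.

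**Figure D1:**
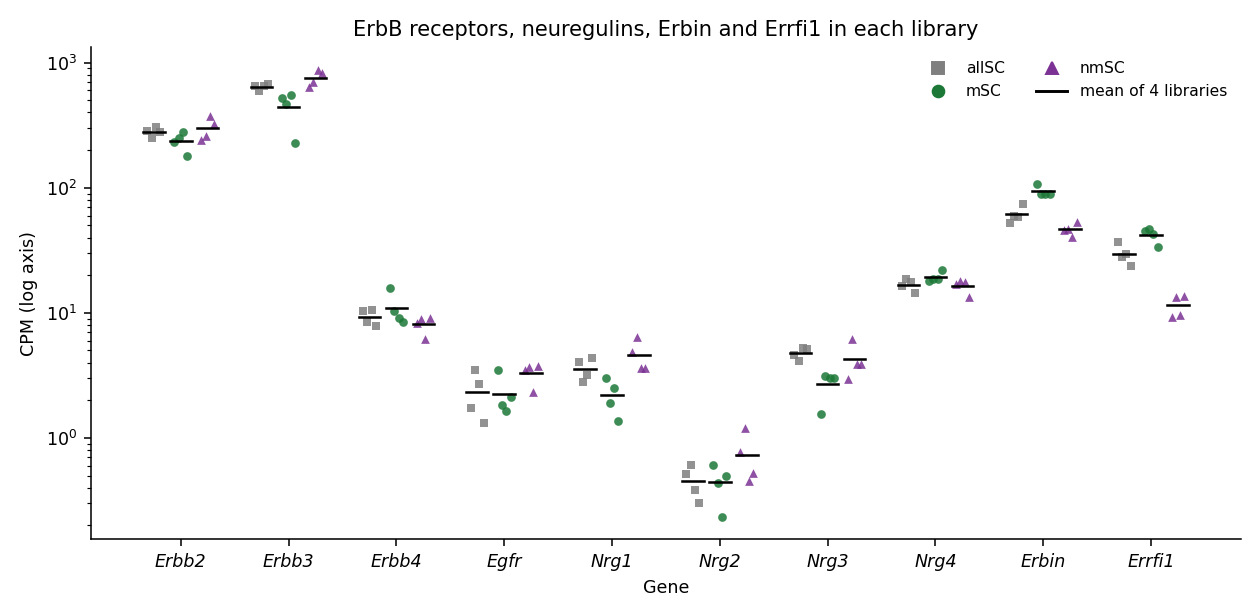
Level of each of the 10 genes in the 12 libraries, in CPM after TMM normalization on a log axis. Each point is a library, with its gate given by colour and shape, and the black bar is the mean of 4 libraries. The 4 mSC libraries lie above the 4 nmSC libraries for Erbin and Errfi1 and below them for Erbb3 and Nrg1.

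Erbb3, the receptor that binds neuregulin (chr10:128567523-128589652, minus strand, GRCm38), was the member with the most reads, per exon length too (RPKM values follow). It reached 648, 596, 651 and 673 CPM in allSC replicates 1 to 4. In mSC it reached 519, 464, 548 and 229 CPM, and in nmSC 638, 699.6, 879 and 831 CPM. Every mSC library was thus below every library of the other gates, with replicate 4 far below the rest. The means were 642 ± 32.8, 439.9 ± 145 and 762 ± 112 CPM (SD, n = 4) in allSC, mSC and nmSC. The log2 fold change of mSC against nmSC was -0.79 with a standard error of 0.195, a level 1.73-fold higher in nmSC (edgeR quasi-likelihood test, Benjamini-Hochberg adjusted p = 0.00318). Without mSC replicate 4 it was -0.57 (edgeR, adjusted p = 0.000404). Against allSC, mSC differed by -0.54 with an adjusted p of 0.0600 (edgeR), and this passed the threshold without mSC replicate 1 (adjusted p = 0.0318) or mSC replicate 3 (adjusted p = 0.0466). Without mSC replicate 4 this difference was -0.30 (edgeR, adjusted p = 0.0704).

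Erbb2, the signalling partner of Erbb3 (chr11:98412470-98437716, plus strand), gave 282, 251, 304 and 282 CPM in allSC. Its levels in mSC were 234, 249, 282 and 179 CPM and in nmSC 239, 258, 375 and 322 CPM. The mSC and nmSC libraries overlapped, although in each of the 4 numbered pairs the mSC library was the lower. The means were 279.7 ± 22.0, 236 ± 42.9 and 298 ± 62.1 CPM (SD, n = 4). For mSC against nmSC the log2 fold change was -0.34, with a 95% interval from -0.66 to -0.02 and an adjusted p of 0.0863 (edgeR). Without mSC replicate 4 the value was -0.22 (edgeR adjusted p = 0.191), and without nmSC replicate 3 it was -0.20 (edgeR adjusted p = 0.296). With DESeq2 size factors it was -0.25 (edgeR adjusted p = 0.218). The call was reached without nmSC replicate 1 (edgeR adjusted p = 0.0421). It was also reached with library size alone (-0.89, edgeR adjusted p = 0.000139) and with library size without the 50 top genes (-0.69, adjusted p = 0.00114). The filter at 10 CPM in 4 libraries gave it too (-0.53, edgeR adjusted p = 0.0071). The call thus depends on scaling, filter and the libraries kept, and Erbb2 is best described by its interval. Erbb2 shares 9 bases of exon with Mien1 on the opposite strand, and Smart-Seq2 does not keep strand.

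The ratio of the counts of both receptors within a library does not depend on normalization. The log2 ratio of Erbb3 to Erbb2 was 1.20, 1.25, 1.10 and 1.26 in allSC. In mSC it was 1.15, 0.90, 0.96 and 0.36, and in nmSC 1.42, 1.44, 1.23 and 1.37. It averaged 1.20 ± 0.0727, 0.84 ± 0.340 and 1.36 ± 0.0946 (SD, n = 4), lowest in mSC in each of the 4 numbered sets and highest in nmSC. The difference of mSC from nmSC was -0.52, without overlap, with the smallest p that 4 against 4 libraries allow (two-sided exact permutation test, p = 0.0286), which became 0.0857 after adjustment over the 3 comparisons. For mSC against allSC the difference was -0.36 (exact permutation p = 0.0571, adjusted 0.0857), and for nmSC against allSC it was 0.16 (exact permutation p = 0.0857, adjusted 0.0857). Without mSC replicate 4 the difference of mSC from nmSC was -0.36. These comparisons share libraries, and with all libraries none passed the threshold after adjustment. Without mSC replicate 1 the adjusted exact permutation p was 0.0429 for both mSC against nmSC (-0.63) and mSC against allSC (-0.46).

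**Figure D2:**
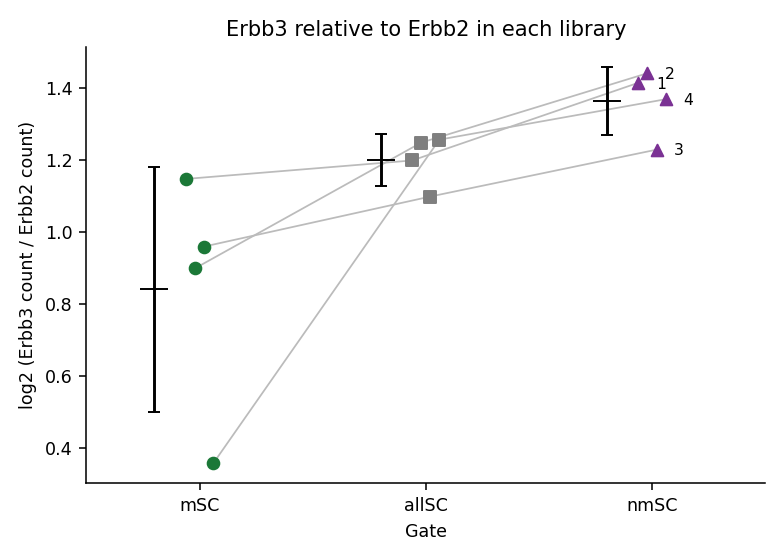
Log2 ratio of the Erbb3 count to the Erbb2 count in each library of the mSC, allSC and nmSC gates. Grey lines join libraries with the same number in the labels (printed at the right), and black bars give the mean and SD of 4 libraries. The ratio was lowest in mSC for every number, with replicate 4 at 0.36 and the other 3 mSC libraries at 0.90 to 1.15.

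The other receptors were low. Erbb4, a neuregulin receptor with an active kinase (chr1:68032186-69108059, minus strand), was at 10.4, 8.51, 10.5 and 7.85 CPM in allSC. It had 15.9, 10.4, 9.17 and 8.49 CPM in mSC and 8.37, 8.86, 6.13 and 9.10 CPM in nmSC. These libraries overlapped, and the log2 fold change of mSC against nmSC was 0.45 (95% interval 0.01 to 0.89, edgeR adjusted p = 0.0932). It passed the threshold without mSC replicate 4 (edgeR adjusted p = 0.0371), and also with DESeq2 size factors (0.54, edgeR adjusted p = 0.0445). DESeq2's Wald test called it as well (0.51, adjusted p = 0.0484). Egfr, the receptor of EGF and its relatives (chr11:16752203-16918158, plus strand), was counted 13 to 57 times per library. Its levels were 1.75, 3.48, 2.70 and 1.31 CPM in allSC, 3.47, 1.83, 1.63 and 2.12 CPM in mSC, and 3.46, 3.66, 2.32 and 3.76 CPM in nmSC. The gates overlapped, and the log2 fold change of mSC against nmSC was -0.53 with a wide interval from -1.23 to 0.17 (edgeR adjusted p = 0.210).

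Among the ligands, Nrg1, which encodes the neuregulin that axons present to SCs (chr8:31814551-32884029, minus strand), was present at low counts, 11 to 75 per library. Its levels were 4.01, 2.81, 3.16 and 4.33 CPM in allSC. They were 2.99, 1.91, 2.49 and 1.37 CPM in mSC and 4.90, 6.39, 3.59 and 3.63 CPM in nmSC. The nmSC libraries lay above all mSC libraries, by 2.05-fold on the fitted scale (log2 fold change of mSC against nmSC -1.04, standard error 0.287, edgeR adjusted p = 0.00734). Nrg1 has 18 annotated transcripts, which counts per gene do not separate, and 482 bases of its exons overlap Gm26578 on the opposite strand. The summed level of 7 neuron markers was 11.4 to 23.0 CPM in mSC and 20.7 to 24.6 CPM in nmSC, with 2 of the 7 called higher in nmSC, no marker at 0 in all libraries and 6 under a mean of 5 CPM. Their part in the Nrg1 difference was not tested.

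Nrg3, a ligand of Erbb4 (chr14:38368952-39473088, minus strand), was at 4.59, 4.09, 5.24 and 5.14 CPM in allSC. It had 1.56, 3.13, 3.03 and 3.00 CPM in mSC and 2.98, 6.22, 3.89 and 3.89 CPM in nmSC. It was the only one of the 10 members whose mean in allSC (4.76 ± 0.534 CPM) did not lie between those of mSC (2.68 ± 0.747 CPM) and nmSC (4.24 ± 1.38 CPM, SD, n = 4), although the nmSC and allSC libraries overlapped. The mean of allSC lay between for 69.5% of all tested genes. mSC was lower than allSC (log2 fold change -0.84, edgeR adjusted p = 0.0422), a call lost on leaving out any one of the 4 allSC libraries, mSC replicates 1, 2 or 3, or nmSC replicate 4 (adjusted p 0.0524 to 0.109). Against nmSC it differed by -0.68 (edgeR adjusted p = 0.0585). This was called without nmSC replicate 1 (edgeR adjusted p = 0.0365), with library size alone (-1.25) and with library size without the 50 top genes (-1.04).

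Nrg4, another Erbb4 ligand (chr9:55220222-55326844, minus strand), was the neuregulin gene with the most reads in every library, per exon length too. It measured 16.5, 18.6, 17.7 and 14.4 CPM in allSC, 18.0, 18.5, 18.7 and 22.1 CPM in mSC, and 17.1, 17.9, 17.6 and 13.3 CPM in nmSC. The lowest mSC library was just above the highest nmSC library, and the log2 fold change was 0.23 (95% interval -0.08 to 0.54, edgeR adjusted p = 0.219). Its exons share 368 bases with Fbxo22 and 177 bases with Gm15625 on the opposite strand. Nrg2, a ligand of Erbb3 and Erbb4, had 3 to 14 counts per library and was not tested. Its levels were 0.510, 0.603, 0.385 and 0.302 CPM in allSC, 0.612, 0.435, 0.233 and 0.499 CPM in mSC, and 0.769, 1.19, 0.449 and 0.528 CPM in nmSC, with the gates overlapping.

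Levels of different genes are comparable only per length, so CPM were also divided by the exon length in kilobases (RPKM). On this scale the mean of Erbb3 was 107, 73.1 and 127 RPKM in allSC, mSC and nmSC, and that of Erbb2 was 53.7, 45.3 and 57.3 RPKM. Erbin had 7.71, 11.8 and 5.88 RPKM and Errfi1 8.22, 11.7 and 3.20 RPKM. In allSC and mSC these means differed by less than their SD (Errfi1 8.22 ± 1.48 and Erbin 7.71 ± 1.18 RPKM in allSC, SD, n = 4). Nrg4 followed with 2.71 to 3.18 RPKM, then Erbb4 with 0.657 to 0.890, Nrg3 with 0.393 to 0.699, Nrg1 with 0.212 to 0.447, Egfr with 0.200 to 0.291 and Nrg2 with 0.142 to 0.234 RPKM. With the mean transcript length in place of the exon union, Nrg4 stood at 15.2 to 17.9 RPKM, as its annotated transcripts average 1081 bases and its exon union holds 6075. The order of the lower members and the distance between Erbb3 and Erbb2 thus depend on the length used. By transcript length Nrg4 lay above Erbin and Errfi1 in allSC and nmSC (in nmSC 15.2 against 8.55 and 5.20 RPKM). Nrg1 with 2.24 RPKM in nmSC lay above Erbb4 and Nrg3 (1.42 RPKM). The means of Erbb3 and Erbb2 stayed the highest in each gate. In mSC they were then close, at 73.1 ± 24.1 RPKM for Erbb3 and 72.0 ± 13.1 RPKM for Erbb2 (SD, n = 4).

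As a reference for the lowest signal, 1452 olfactory and vomeronasal receptor genes, which SCs are not known to use, had a summed density of 0.293 ± 0.0264, 0.208 ± 0.0192 and 0.334 ± 0.0664 RPKM in allSC, mSC and nmSC (SD, n = 4). This density was 1.61-fold higher in nmSC than in mSC, without overlap between the libraries. Nrg1 exceeded 53.2% of these genes in mSC and 72.0% in nmSC, and was higher in the same gate as they were. Egfr exceeded 28.0% to 49.9% and Nrg2 16.3% to 31.9% of them. Nrg3 exceeded 88.2% to 95.8% and Erbb4 91.9% to 99.7%, and the remaining 5 members lay above all of them in each gate. These shares depend on the length as well. With the mean transcript length for members and receptor genes alike, Nrg1 exceeded 99.4% of the receptor genes in mSC and 99.9% in nmSC, Egfr 90.2% to 96.2%, Nrg2 51.2% to 77.0% and Nrg3 98.1% to 99.8%. The part of this signal in the differences of Nrg1 and Nrg3 was not tested.

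**Figure D3:**
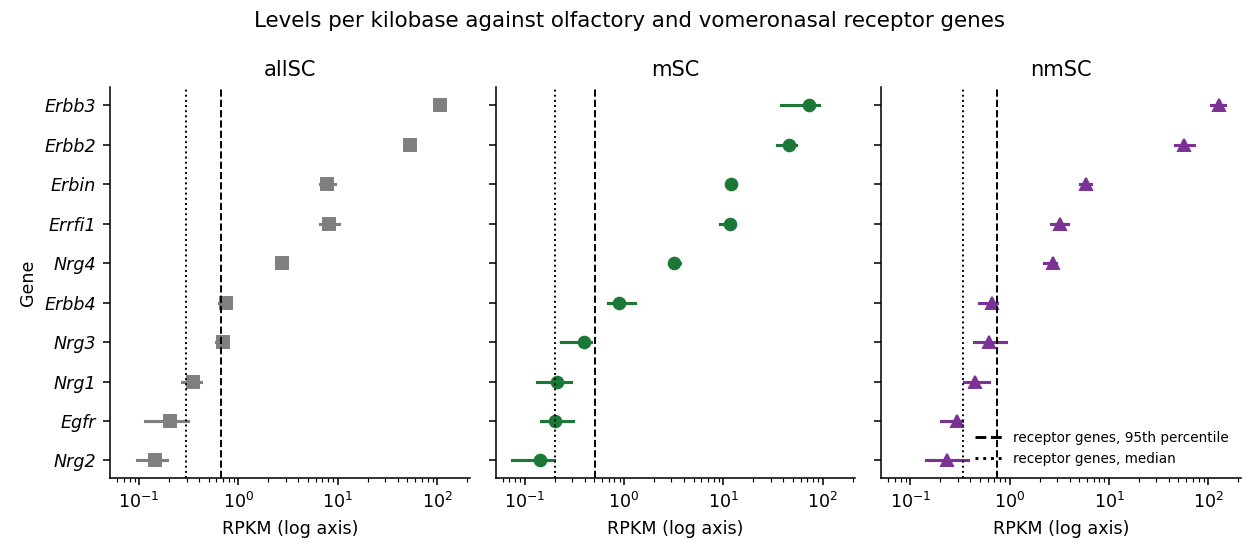
Mean RPKM of the 10 genes in each gate on a log axis (points), with lines from the lowest to the highest of 4 libraries. CPM were divided by exon union length. The dotted and dashed vertical lines mark the median and the 95th percentile of 1452 olfactory and vomeronasal receptor genes in that gate. Nrg2, Egfr and Nrg1 lie left of the dashed line in all 3 gates, and Erbb3, Erbb2, Erbin, Errfi1 and Nrg4 lie right of it.

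The inhibitor Errfi1 (chr4:150853919-150868892, plus strand) changed more than any other tested member between mSC and nmSC. It had 36.6, 27.7, 29.6 and 23.9 CPM in allSC. The mSC libraries had 45.2, 46.4, 42.3 and 33.5 CPM and the nmSC libraries 9.33, 13.3, 9.57 and 13.7 CPM. All mSC libraries were more than 2-fold above all nmSC libraries. The means were 29.4 ± 5.32, 41.9 ± 5.85 and 11.5 ± 2.35 CPM (SD, n = 4), and mSC exceeded nmSC 3.64-fold (log2 fold change 1.86, standard error 0.175, edgeR adjusted p = 5.54e-08). nmSC was also below allSC (log2 fold change -1.36, edgeR adjusted p = 1.85e-05). The excess of mSC over allSC was smaller (log2 fold change 0.51, edgeR adjusted p = 0.0413), and with the mouse number as a block it was 0.51 with an adjusted p of 0.0647. That call was also lost on leaving out any one of allSC replicates 2, 3 or 4 or mSC replicates 1, 2 or 3 (adjusted p 0.0501 to 0.112).

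The scaffold Erbin (chr13:103818787-103920514, minus strand) was at 52.2, 59.9, 58.4 and 74.3 CPM in allSC. It reached 107, 89.1, 89.7 and 89.8 CPM in mSC and 46.3, 46.9, 40.6 and 52.8 CPM in nmSC. The mSC libraries lay above those of both other gates. The means were 61.2 ± 9.34, 93.8 ± 8.55 and 46.7 ± 4.97 CPM (SD, n = 4), a 2.01-fold excess of mSC over nmSC (log2 fold change 1.01, standard error 0.136, edgeR adjusted p = 6.77e-06). Against allSC, mSC was higher by a log2 fold change of 0.62 (edgeR adjusted p = 0.00326). nmSC and allSC differed by -0.39 (edgeR adjusted p = 0.0784), which passed without mSC replicate 4 (adjusted p = 0.0474). No other annotated gene overlaps Erbin.

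Against allSC, 3 of 9 members were called in mSC (Erbin and Errfi1 higher, Nrg3 lower), where 17.6% of all tested genes were called. This split depends on the scaling. With library size alone 4 members were called and all were lower in mSC, with Erbin at 0.32 (edgeR adjusted p = 0.102) and Errfi1 at 0.21 (edgeR adjusted p = 0.393). Without the 50 top genes in the library size 1 was higher and 3 were lower, and with DESeq2 size factors 2 were higher and none lower. In nmSC, 1 of 9 was called (Errfi1, lower), where 10.4% of all tested genes were called. Both comparisons use the same allSC libraries. Each member was also taken on its own, with log2(CPM + 1) compared by a two-sided exact permutation test. In the 3 comparisons 5, 3 and 1 members had an unadjusted p under 0.05, and none after adjustment over the 30 tests (lowest 0.0952). As 4 against 4 libraries allow no exact permutation p below 0.0286, passing would have needed most of the 30 tests at that floor. The adjusted result therefore cannot decide on single members.

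**Figure D4:**
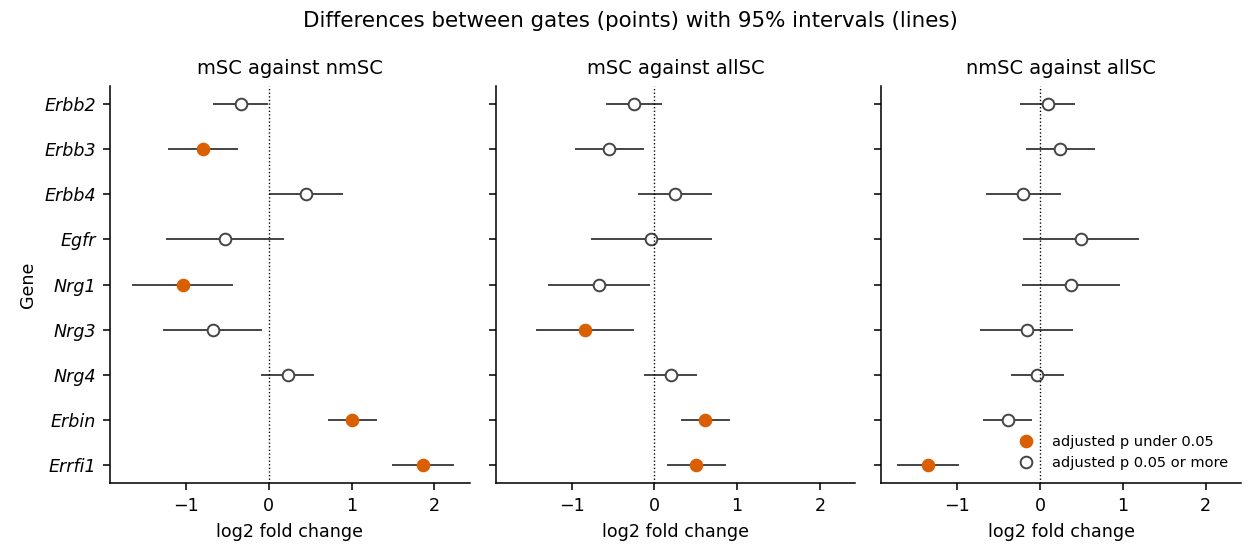
Log2 fold change of the 9 tested genes in the 3 comparisons of gates, as points, with 95% intervals as lines. Filled points have an adjusted p under 0.05 in the edgeR quasi-likelihood test. Erbin and Errfi1 lie right of 0 and Erbb3 and Nrg1 left of it in mSC against nmSC, with intervals that exclude 0. The intervals of Erbb2, Erbb4 and Nrg3 exclude 0 there too, although these genes were not called.

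The promoters of Errfi1 and Erbin, the members that were higher in mSC, are shown because both genes moved in the same direction. Each window runs from 250 bases before to 50 bases after a transcription start, read 5′ to 3′ on the strand of the gene (RefSeq, GRCm38.p6), and 7 of the 10 members had such a window in the table used. Capitals mark matches on either strand to 6 motifs, namely the cyclic AMP response element (TGACGTCA), AP-1 (TGANTCA), EGR (GNGTGGGNG), TEAD (CATTCC), SOX (ACAAT) and the TATA box (TATAAA).
Errfi1, first start, chr4:150853546-150853845, plus strand: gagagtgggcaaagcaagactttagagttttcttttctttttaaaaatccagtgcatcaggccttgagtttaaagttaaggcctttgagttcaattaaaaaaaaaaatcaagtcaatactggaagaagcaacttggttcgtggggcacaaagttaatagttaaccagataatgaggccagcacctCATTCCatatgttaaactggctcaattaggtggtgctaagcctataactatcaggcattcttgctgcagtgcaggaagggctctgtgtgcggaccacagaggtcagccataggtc
Errfi1, second start, chr4:150854820-150855119, plus strand: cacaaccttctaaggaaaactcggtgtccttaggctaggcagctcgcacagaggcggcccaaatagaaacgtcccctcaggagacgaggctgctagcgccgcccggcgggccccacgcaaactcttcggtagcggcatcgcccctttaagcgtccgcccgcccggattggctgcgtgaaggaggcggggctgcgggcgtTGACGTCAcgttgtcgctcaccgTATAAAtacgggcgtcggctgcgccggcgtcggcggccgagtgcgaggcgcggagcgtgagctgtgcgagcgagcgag
Erbin, chr13:103920537-103920836, minus strand: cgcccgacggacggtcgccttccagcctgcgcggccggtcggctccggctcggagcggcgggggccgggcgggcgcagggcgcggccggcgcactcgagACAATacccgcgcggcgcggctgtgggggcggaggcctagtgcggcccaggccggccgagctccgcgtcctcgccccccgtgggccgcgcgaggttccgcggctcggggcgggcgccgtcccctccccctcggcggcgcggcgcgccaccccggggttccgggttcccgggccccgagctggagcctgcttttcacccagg
The second window of Errfi1 held a cyclic AMP response element that begins 51 bases before the start and a TATA box that begins 28 bases before it. These letters occurred in 1.79% and 13.6% of the 32851 promoter windows of the table. The first window of Errfi1 held a TEAD match 65 bases before the start (14.7% of windows), and that of Erbin a SOX match 151 bases before it (31.0% of windows). The G and C content was 42.0% in the first window of Errfi1, 66.7% in the second and 82.0% in the window of Erbin. No motif was found in both genes, and no 2 matches overlapped. The matches describe letters in these windows only.

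Beyond the family, 93 further genes of the ErbB pathway were placed in 9 lists, of which 90 were tested. Between mSC and nmSC 47 of them (52.2%) were called, 28 higher in mSC and 19 higher in nmSC, against 40.5% of all tested genes, and without mSC replicate 4 the number was 54. The split depends on the scaling, with 13 higher in mSC and 45 higher in nmSC under library size alone, 15 and 30 under library size without the 50 top genes, and 32 and 17 under DESeq2 size factors. The numbers below are with TMM factors. For mSC against nmSC they are to be read beside the shares of all tested genes, 20.4% higher in mSC and 20.2% higher in nmSC. The called genes Crk, Pik3r1 and Scrib changed sign with library size alone, as Pik3r1 and Scrib did without the 50 top genes, and these values were then not called. Measured from the median of all tested genes, each list median kept its side under each scaling, from 0.87 above for the Ras and ERK arm to 1.18 to 1.21 below for the ERK feedback genes and targets. As a scaling shifts all genes by nearly the same amount, this distance hardly changes with it. It therefore cannot check the directions of the lists.

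The list of other EGF family ligands had 1 gene higher in mSC and 2 higher in nmSC of 6 tested (median log2 fold change -0.28, against -0.16 over all tested genes). Tgfa, a ligand of Egfr, was at 82.7, 73.1, 85.1 and 26.1 CPM in mSC and at 3.56, 5.88, 5.68 and 6.60 CPM in nmSC. The mSC libraries all exceeded the nmSC libraries, with mSC replicate 4 the lowest of its gate, and the log2 fold change was 3.61 (edgeR adjusted p = 5.49e-09). Egf (-0.91, edgeR adjusted p = 0.0165) and Hbegf (-0.54, edgeR adjusted p = 0.00772) were higher in nmSC, at log2 fold changes of mSC against nmSC. Of 11 proteases and secretase subunits that process neuregulins, 3 were higher in mSC and none in nmSC (median 0.35). The share called was below the 40.5% of all tested genes. Library size alone gave 3 and 4 (median -0.19). Bace2, a relative of the neuregulin sheddase Bace1, was at 165 ± 21.1 CPM in mSC and 16.0 ± 3.07 CPM in nmSC (SD, n = 4, log2 fold change 3.37). Adam10, a membrane sheddase, differed by 1.39 and the gamma-secretase subunit Aph1a by 0.90, while the value of Bace1 itself was 0.02 and not called.

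Of 12 tested receptor adaptors, 4 were higher in mSC and none in nmSC (median 0.19), again a smaller share called than the 40.5% of all tested genes. Library size alone gave 1 and 5 (median -0.37). The phosphotyrosine adaptor Shc4 had 594 ± 155 CPM in mSC and 149.9 ± 13.6 CPM in nmSC (SD, n = 4, log2 fold change 1.99). The Ras exchange factor Sos2 differed by 0.71, the phosphatase Ptpn11 by 0.61 and the adaptor Crk by 0.44. Of the 10 genes of the Ras and ERK arm, 8 were higher in mSC and none in nmSC (median 0.71), against 3 and 1 with library size alone (median 0.14) and 5 and 1 without the 50 top genes (median 0.34). The kinase Araf had 217 ± 10.5 CPM in mSC and 117 ± 12.9 CPM in nmSC (SD, n = 4, log2 fold change 0.89, edgeR adjusted p = 2.91e-06).

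The list of ERK feedback genes and targets had no gene higher in mSC and 8 higher in nmSC of 11 tested, with a median log2 fold change of -1.35, and 8 to 10 were higher in nmSC under the other scalings. Etv5, a transcription factor induced by ERK signals, was at 9.11, 9.39, 10.7 and 9.12 CPM in mSC and at 44.0, 39.3, 43.4 and 40.2 CPM in nmSC. The ranges were far apart, and the log2 fold change was -2.12 (edgeR adjusted p = 2.09e-10). Dusp6, the phosphatase that inactivates ERK, was at 219, 180.4, 114 and 87.3 CPM in mSC and 513, 561, 565 and 548 CPM in nmSC (log2 fold change -1.86, edgeR adjusted p = 8.12e-07). For the 19 immediate early and dissociation genes, 2 were higher in mSC and 6 in nmSC, no gene was at 0 in all libraries, and their summed level overlapped (3378 to 6036 CPM in mSC, 4991 to 5957 CPM in nmSC). Fos, at means of 2270 CPM in mSC and 2150 CPM in nmSC, was the largest part of this sum and was not called. Higher in nmSC were Ier2 (log2 fold change of mSC against nmSC -2.52), Egr1 (-1.94), Jun (-1.31), Zfp36 (-1.27), Atf3 (-1.12) and Nr4a1 (-0.98). Higher in mSC were Klf4 (1.25) and Btg2 (0.98). The part of dissociation in these values and in the ERK feedback list was not tested. The summed level of the proliferation markers Mki67, Top2a, Ccnb1 and Cdk1 was 59.7 to 101 CPM in mSC and 761 to 1004 CPM in nmSC, and its part in the pathway lists was not tested.

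In the PI3K and Akt arm, 3 of 9 genes were higher in mSC and 1 in nmSC (median 0.32). Library size alone gave 1 and 3 (median -0.22). The kinase gene Akt1 differed by 0.57 (edgeR adjusted p = 0.00166) and the regulatory subunit Pik3r1 by 0.32 (edgeR adjusted p = 0.0395), both higher in mSC. Of 11 genes of phospholipase C gamma, calcineurin and NFAT, 4 were higher in mSC and 3 in nmSC (median -0.14). Library size alone gave 1 and 6 (median -0.71). Plcg1, the phospholipase recruited by activated receptors, was at 2.32 ± 0.536 CPM in mSC and 17.7 ± 3.63 CPM in nmSC (SD, n = 4, log2 fold change -2.91, edgeR adjusted p = 3.17e-09). The transcription factor Nfatc1 differed by -1.05, and the calcineurin subunit Ppp3ca (0.71) and the calcineurin regulator Rcan1 (1.42) were higher in mSC. Genes within this arm thus moved in both directions.

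Of 11 genes of receptor turnover, 1 was higher in mSC and 3 in nmSC (median 0.07). Library size alone gave 1 and 8 (median -0.49). Rnf41, a ubiquitin ligase of Erbb3 also called Nrdp1, was at 181 ± 15.2 CPM in mSC and 89.0 ± 15.7 CPM in nmSC (SD, n = 4, log2 fold change 1.02, edgeR adjusted p = 2.95e-06). Its RNA differed in the reverse direction to that of Erbb3, and a link between them was not tested. The ubiquitin ligases Wwp1 (-1.64), Cblb (-1.59) and Nedd4 (-0.34) were higher in nmSC, as was Erbb3. In the list of relatives and partners of Erbin, 4 of 9 genes were higher in mSC and 2 in nmSC (median 0.16). Library size alone gave 2 and 5 (median -0.40). Lrrc7, a protein of the same LAP family, differed by 1.84, and the catenin relatives Arvcf and Pkp4 by 1.01 and -1.28.

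**Figure D5:**
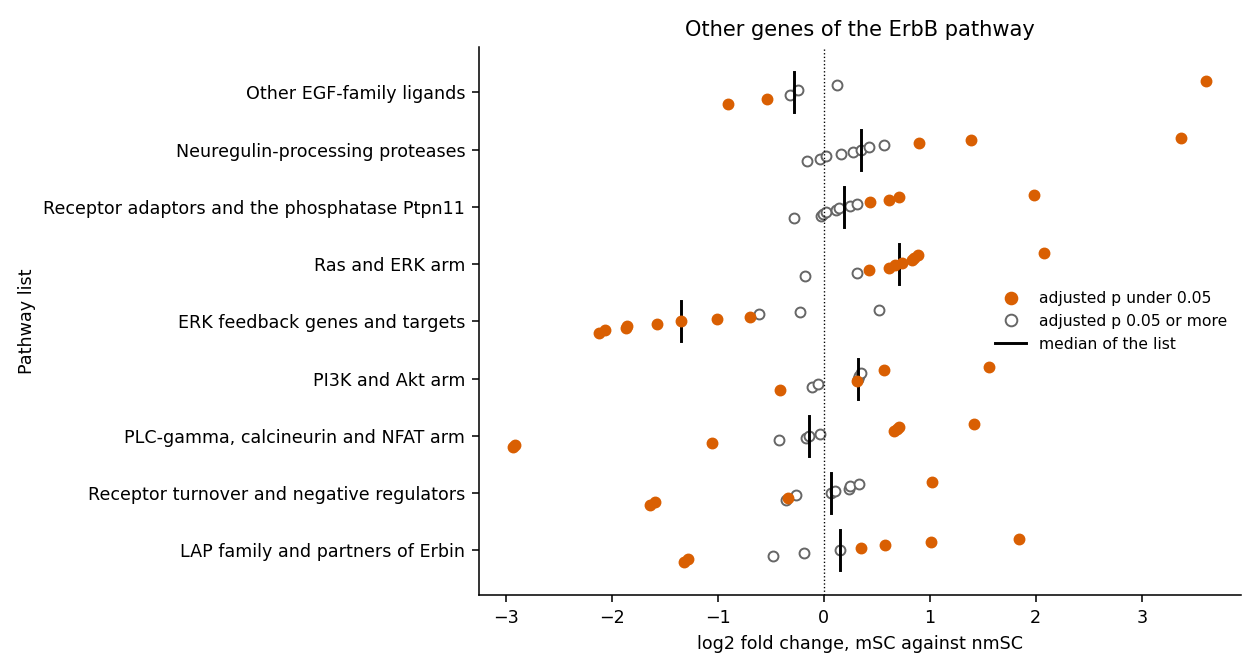
Log2 fold change of mSC against nmSC for the 90 tested genes of the 9 pathway lists. Each point is a gene, filled where the adjusted p is under 0.05, and black bars are list medians. Points of the Ras and ERK arm lie mostly right of 0 (median 0.71) and those of the ERK feedback genes mostly left (median -1.35). With library size in place of TMM factors these medians were 0.14 and -1.93.

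Against allSC, 25 of the 90 list genes were called in mSC (14 higher, 11 lower, 27.8% against 17.6% of all tested genes). With library size alone the split was 3 higher and 21 lower, without the 50 top genes 4 and 16, and with DESeq2 size factors 21 and 11. In nmSC 16 were called against allSC (4 higher, 12 lower, 17.8% against 10.4%), and with library size alone 16 were higher and 7 lower, without the 50 top genes 8 and 9. For the ERK feedback list, 5 of 11 were lower in mSC than in allSC and 1 was higher in nmSC than in allSC. These comparisons share the allSC libraries with each other and the sorted libraries with the comparison of mSC and nmSC.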

How the data were processed

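RNA of SCs sorted from P5 sciatic nerves was measured in 12 Smart-Seq2 libraries, 4 per gate. By the paper each sample came from 1 mouse. The gate and the number of a library were taken from the labels. Reads were trimmed, mapped with STAR 2.6.1c and assigned to genes with featureCounts by the authors, who deposited raw counts. The submitters' processing notes name the build GRCm38.p5, whereas the methods name a human build, and the identifiers are of mouse. Options for strand, multiple mapping and overlapping genes are not given in the sources used here.

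Symbols, positions and exon lengths came from GENCODE M21 (25664 of 25700 identifiers matched). Nrdc was taken under its older symbol Nrd1. From the counts, TMM factors, an expression filter by gate and the quasi-likelihood test of edgeR 4.0.16 (R 4.3.3) were applied in 1 model over 12 libraries, with Benjamini-Hochberg adjustment at 0.05. CPM and RPKM are TMM-scaled. Exact permutation tests used log2(CPM + 1), and the receptor ratio a pseudocount of 0.5. These steps were tested on simulated data. The limit of 3 counts covers counting error only, while the 95% intervals come from the edgeR fit and take in the spread between libraries.

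Pairing libraries across gates by mouse is an inference from the number in the labels. Same-numbered deviations correlated only at -0.456 to 0.493 over 10772 genes. Libraries of a gate differed by 4.39 to 125 in chi-square per degree of freedom, so none was counted as a duplicate. All 10 members are named. In each list every called gene is named where 4 or fewer were called, and otherwise the 2 largest changes in each direction with a mean of at least 5 CPM. Some genes that this rule names are not reported here. Bace1 and Scrib were added after their values were seen. The members, the lists and the tests were chosen with earlier results of these data known. The alternatives were DESeq2 1.42.0 size factors and Wald test, library size alone or without the 50 top genes, other filters, 2 gates only, a block for the mouse number, counts thinned to the smallest library and leaving out each library. The length measure, the receptor-gene reference by either length, the counts of list genes under each scaling, the distance from the median of all genes, values without mSC replicate 4 and the motif search were added after the data were seen. Sex was not used because the labels do not give it per library.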

Additional observations from a re-analysis of the deposited data

Results flagged for a closer look

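In 4 of 120 groups of 4 libraries (a named gene in a gate) 1 library lay far from the other 3, where chance alone gives about 1 in 20. Nrg3 in mSC replicate 1 was at 1.56 CPM, with the others at 3.00 to 3.13 CPM. Nrg4 in nmSC replicate 4 was at 13.3 CPM, with the others at 17.1 to 17.9 CPM. Erbin in mSC replicate 1 was at 107 CPM, with the others at 89.1 to 89.8 CPM. Nfatc1 in allSC replicate 1 was at 16.5 CPM, with the others at 12.3 to 12.6 CPM.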

How the results depend on the processing

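Over 558 recomputed fold changes of members, 489 kept direction and side of the threshold, 24 lost the call, 23 gained it and 22 changed sign. Errfi1, Erbin, Erbb3 and Nrg1 kept their calls in mSC against nmSC under all alternatives that gave a value (adjusted p up to 1.70e-05, 0.0110, 0.0191 and 0.0384). The causes of the shifts below were not tested. With library size alone the members called in mSC against nmSC numbered 7 in place of 4, all genes called there 11840 in place of 7540, and all genes called in nmSC against allSC 2938 in place of 1928. Without the 50 top genes the members called were also 7. The share of called genes that were higher in mSC was 50.3% (12.2% and 21.2% with these scalings) against nmSC and 49.9% (9.52% and 19.1%, and 60.0% with DESeq2 size factors) against allSC, and the share higher in nmSC than in allSC was 27.3% (74.7% and 56.2%). The filter at 10 CPM left 4934 genes called in mSC against nmSC, of fewer tested. With only the 2 gates fitted, 2899 genes and 25 list genes, in place of 16, were called in nmSC against allSC. DESeq2's Wald test called 2 members there in place of 1.

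Signs changed for values that were not called. With library size alone, mSC against nmSC gave -0.10 for Erbb4 and -0.34 for Nrg4 (-0.14 for Nrg4 without the 50 top genes). mSC against allSC gave -0.045 for Erbb4 and -0.11 for Nrg4 (-0.014 without the 50 top genes). nmSC against allSC gave 0.056 for Erbb4, 0.10 for Nrg3 and 0.23 for Nrg4 (0.13 without the 50 top genes, 0.057 with the filter at 10 CPM and 0.029 with thinned counts). Egfr in mSC against allSC was 0.033 with DESeq2 size factors and 0.021 with its Wald test.

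Leaving out 1 library gave 4 to 6 members called in mSC against nmSC, 1 to 3 in mSC against allSC (1 without allSC replicates 2, 3 or 4 or mSC replicate 2) and 1 to 2 in nmSC against allSC (2 without mSC replicate 4). List genes called in nmSC against allSC were 10 to 24, with 10 without allSC replicate 4. Egfr in mSC against allSC ranged from -0.32 to 0.24, Erbb2 in nmSC against allSC from -0.039 to 0.18 and Nrg4 there from -0.10 to 0.056. The Erbb3 to Erbb2 ratio ranged from -0.63 to -0.36 in mSC against nmSC and from -0.46 to -0.20 in mSC against allSC, with adjusted permutation p = 0.0429 for both without mSC replicate 1 (3 against 4 libraries allow an exact p of 0.0286). With the mouse number as a replicate block, 4, 2 and 1 members were called in the 3 comparisons, and apart from Errfi1 in mSC against allSC the block changed no call of a member. The paired form of the ratio test gave an exact sign-flip p of 0.125, the smallest that 4 pairs allow. Depth limits Nrg2, Egfr and Nrg1 most.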

Other observations

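As a description, the genes that followed each of 5 members most closely in log2(CPM + 1) are given. These members had a mean of at least 10 CPM. The search covered 9405 genes with a mean of at least 10 CPM, over 12 libraries that share gates and mouse numbers. Erbb3 was followed by Nid2 (Pearson r = 0.992), a basement membrane protein, Il6st (r = 0.988), the shared receptor subunit of interleukin 6 cytokines, and Sufu (r = 0.983), an inhibitor of hedgehog signalling. The closest genes to Erbb2 were Rfx5 (r = 0.964), Nup93 (r = 0.952) and Slc44a2 (r = 0.948), and its r with Erbb3 was 0.876. Erbin was followed by Slc12a2 (r = 0.986), a sodium, potassium and chloride cotransporter, Spire1 (r = 0.982) and Ankrd40 (r = 0.979). For Errfi1 the closest genes were Slc9a9 (r = 0.982), Svip (r = 0.982) and Tec (r = 0.980), and its r with Erbin was 0.835. Of these 5, Nrg4 had the weakest likeness, with Bin1 (r = 0.868), E130218I03Rik (r = 0.864) and Rita1 (r = 0.858).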
